A study of Homo sapiens with 31 samples.

Results

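B87+DMKG was added to H460 cells whose MDM2 was blocked with Nutlin-3, and gene expression after 6 h was compared with that of cells given Nutlin-3 alone. The comparison takes 7 libraries, 4 of the triple treatment B87+DMKG+Nutlin-3 and 3 of Nutlin-3, out of 31 in the series, and was chosen by the treatment labels and not by measured values. H460 is an established line grown from a human lung carcinoma of the non-small cell kind. B87 is BAY87-2243 at 1 µM, DMKG is dimethyl α-ketoglutarate at 5 mM and Nutlin-3 was used at 30 µM. Beside it stand the same addition without Nutlin-3, which sets 4 B87+DMKG libraries against 4 Control libraries of untreated cells, and the same addition to cells given Rita at 50 µM, which sets 4 B87+DMKG+Rita libraries against 4 Rita libraries. No library enters more than 1 of these 3 comparisons. Each sample joined the cells of 2 wells of 1 cell line, and no label says that replicates were separate cultures, so the p-values cover the spread among these samples only, and that spread may be technical.

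As background, BAY87-2243 inhibits complex I of the mitochondrial respiratory chain and was developed as a blocker of hypoxia signalling, and DMKG is a cell-permeable form of α-ketoglutarate, a substrate of the tricarboxylic acid cycle and of a family of dioxygenases. MDM2 is the ubiquitin ligase that marks the tumour suppressor p53 for destruction, and its own gene is switched on by p53, which makes a feedback loop. Nutlin-3 occupies the pocket of MDM2 that binds p53, so that p53 accumulates and its target genes rise, whereas Rita binds p53 itself. The series was set up to relate such transcriptional responses to cell death.

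The 7 libraries held 50.7 to 75.7 M whole reads, and the 31 libraries of the series 33.4 to 82.5 M. All values below are normalized read counts, that is reads per gene divided by a factor for each library, and differences are on the log2(normalized value + 1) scale with their standard errors (SE). Nutlin-3 replicate 1 stood apart from replicates 2 and 3: the chi-square per degree of freedom of its recovered reads against them was 112 and 138, whereas replicates 2 and 3 gave 20.9. Its share of reads from the mitochondrial genome was 2.42%, against 4.33% and 5.39% in the other Nutlin-3 libraries and 3.34% to 3.67% in the triple treatment. The epithelial keratins that mark a carcinoma line were abundant, with KRT8 at 66216 to 91832 with Nutlin-3 and 115723 to 139549 with the triple treatment, whereas EPCAM averaged 51.0 and 53.1 and CDH1 0.803 and 4.30. The summed level of the 8 epithelial markers was 207256 to 274947 with Nutlin-3 and 348395 to 418332 with the triple treatment. Of the markers of other cells, CD3E was at 0 in all 7 libraries, PTPRC averaged 0.537 and 2.81, and the fibroblast markers summed to 781 to 1118 and 1114 to 1282. The 7 endothelial markers summed to 2.42 to 8.05 and 10.3 to 19.7, and the 7 leukocyte markers to 126 to 155 and 222 to 298, most of it CD14. The part of these differences in the results was not tested, and in RNA pooled from whole wells fewer cells of a kind and less RNA per cell cannot be told apart.

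In cells with MDM2 blocked, the addition lowered most p53 target genes, MDM2 itself among them, lowered the ubiquitin ligase scaffold CUL3 by more than any other abundant named gene, and raised immediate early genes such as EGR1, FOS and JUN, the mTOR brake DDIT4, and genes of glucose uptake and glycolysis. A gene was called when its Benjamini-Hochberg adjusted p in limma was under 0.05 over all 16259 rows tested. By this rule 9700 rows were called (59.7%), of which 4721 were higher (29.0%) and 4979 lower (30.6%) with the triple treatment. Rows called with a difference of at least 1 on the log2 scale numbered 1191 higher (7.33%) and 2253 lower (13.9%), so that large differences were more often falls. Under quantile normalization the balance of all calls turned, to 5498 higher and 4351 lower, while differences of at least 1 still numbered more falls, 1939 against 1559. The median over all rows was -0.01. In 9247 rows (56.9%) the values of the triple treatment and of Nutlin-3 did not overlap. Counts of gene lists are read against these shares of all rows. Without Nutlin-3 replicate 1, the library that stood apart, 9752 rows were called. The lists described first then gave 28 falls and 3 rises among p53 targets, 16 rises among immediate early genes and 17 among glycolysis genes. The hypoxia response gave 11 rises, DNA replication 14 and the tricarboxylic acid cycle 17.

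**Figure D1:**
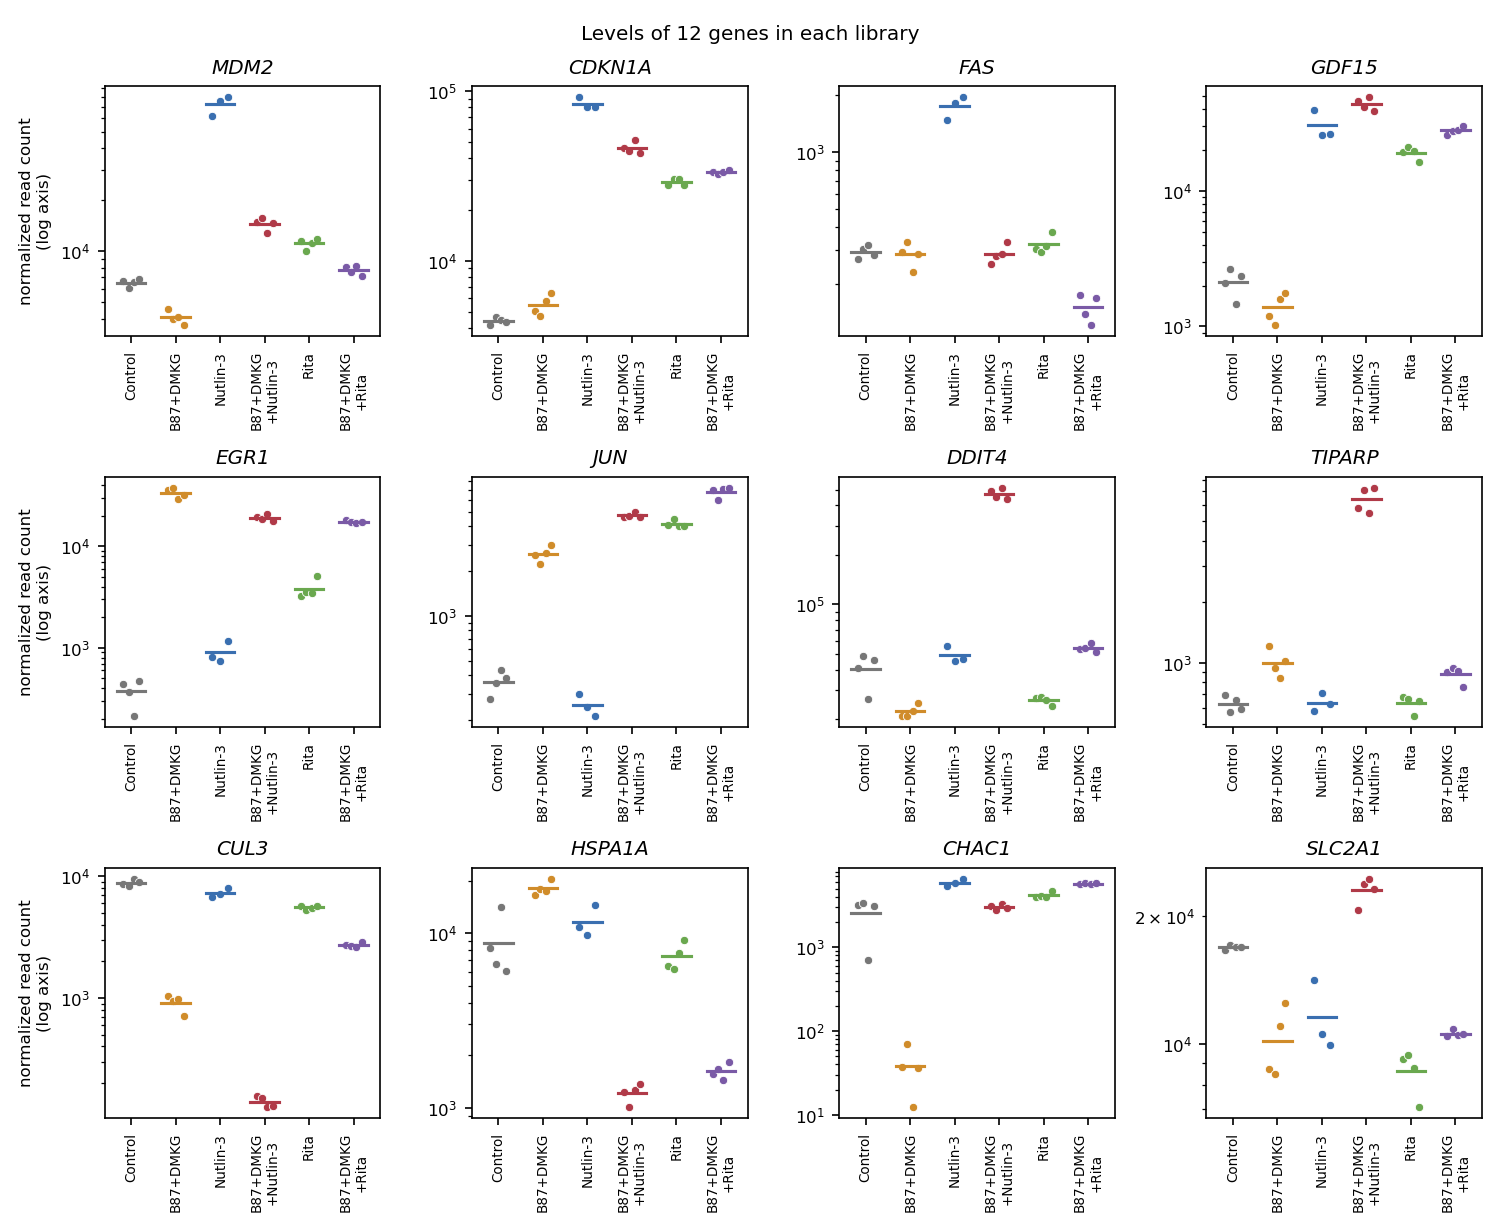
Normalized read counts (log axis) of 12 genes in each library of 6 groups, with 1 point per library and a line at the group mean; n = 4 per group except Nutlin-3 with 3. MDM2, CDKN1A and FAS are lower in the triple treatment than with Nutlin-3 alone and EGR1, JUN, DDIT4 and TIPARP higher, with no overlap between those groups, whereas GDF15 overlaps.

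The p53 targets came first because Nutlin-3 acts on this pathway. Of 34 tested target genes, 29 fell, 3 rose and 2 did not pass the test, with a median of -1.04. The same genes without Nutlin-3 gave 18 falls and 5 rises with a median of -0.41, where 30.8% of all rows fell and 30.2% rose. The list was written with earlier results of these libraries known, so its direction is not independent evidence.

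MDM2 (chr12:69195239-69239324, hg19) stood at 61919, 76151 and 79678 with Nutlin-3 and at 14808, 15651, 12768 and 14618 with the triple treatment, while Control averaged 6525. Every library of the triple treatment lay far below every Nutlin-3 library and above the Control mean. The fall was -2.32 on the log2 scale (SE 0.09, adjusted p = 3.6e-19 by limma), a ratio of means of 5.02. Without Nutlin-3 the same addition lowered MDM2 by -0.68, and the test of the difference between these effects gave -1.64 (adjusted p = 1.4e-11 by limma).

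CDKN1A (chr6:36644237-36655114), which encodes the cell cycle inhibitor p21, read 91711, 80660 and 80394 with Nutlin-3 and 46192, 44086, 51535 and 43372 with the triple treatment. It was lower in each of the 4 triple libraries, yet remained well over the Control mean of 4414. The difference was -0.86 (SE 0.11, adjusted p = 3.2e-08 by limma), against a rise of 0.31 when B87+DMKG was given without Nutlin-3.

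Some other targets ended near the level of untreated cells and some did not. FAS (chr10:90729553-90776817), the gene of a death receptor, read 1482, 1814 and 1948 with Nutlin-3 and 253, 280, 288 and 331 with the triple treatment, and untreated cells averaged 295. Its difference was -2.59 (SE 0.15, adjusted p = 1.1e-15 by limma), while without Nutlin-3 it was -0.05 and was not called. TP53INP1, which promotes p53 phosphorylation and autophagy, read 1497, 1620 and 1510 against 103, 142, 102 and 134, beside a Control mean of 115. That fall of -3.69 (SE 0.19) was the largest among the 34 tested genes of the list. SPATA18, a gene of mitochondrial quality control, fell by 3.13 from a mean of 332 to 37.8, below the Control mean of 85.2. BTG2, an antiproliferative gene named after its values were seen, fell by 2.29 from 24579 to 5017, while Control averaged 1189.

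The level relative to untreated cells differed from target to target. In 31 of the 34 genes every Nutlin-3 library exceeded every Control library, which held in 20.5% of all rows. In the triple treatment 18 genes still had every library above every Control library, beside 28.8% of all rows. The libraries of 12 genes overlapped with Control and those of 4 lay below it, beside 29.3% of all rows that lay below. Against B87+DMKG without Nutlin-3, 22 genes had every triple library higher, beside 20.4% of all rows. These counts describe levels and carry no test.

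The genes that rose were AEN, CCNG1 and GDF15; the first 2 are named after their values were seen. GDF15, a secreted stress cytokine, read 39322, 25915 and 26021 with Nutlin-3 and 45549, 41383, 48793 and 38929 with the triple treatment. The groups overlapped by 1 library, and the difference was 0.54 (SE 0.20, adjusted p = 0.018 by limma). That call was lost without Nutlin-3 replicate 2 (adjusted p = 0.094) and without replicate 3 (adjusted p = 0.094 by limma). AEN, a nuclease gene, rose by 0.71. CCNG1, a cyclin gene, rose by 0.50 with values that overlapped, since Nutlin-3 replicate 1 at 3165 lay above triple replicate 3 at 2987.

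Among the targets that act on cell death, 3 of the 4 described here fell. PMAIP1, which encodes NOXA, fell by 1.11 from a mean of 3581 to 1647, and APAF1, the scaffold of the apoptosome, (-2.09) from 1144 to 273. TNFRSF10B, a receptor of the death ligand TRAIL, fell by 1.51. BBC3, which encodes PUMA, read 2313, 1506 and 1388 with Nutlin-3 and 1443, 1203, 1585 and 1200 with the triple treatment. These BBC3 values overlapped and the difference of -0.33 (SE 0.20) had an adjusted p of 0.15 by limma, so no change was detectable at this spread.

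Beyond the p53 targets, the BCL2 family gave 5 rises and 5 falls of 13, with a median of -0.11, which was -0.04 without Nutlin-3 replicate 1 and -0.05 under quantile normalization. MCL1, a short-lived survival protein gene, read 27429, 26484 and 26425 with Nutlin-3 and 8882, 10489, 8972 and 9504 with the triple treatment, with no overlap and a mean that fell 2.83-fold. BCL2, its longer-lived relative, fell by 1.33. The proapoptotic BOK rose by 1.17, from a mean of 466 to 1030. BIK rose from 4.83, 0 and 2.42 to 26.2, 20.5, 23.1 and 22.3, and its log2 difference of 3.14 depends on the added constant because the Nutlin-3 values are so low.

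Death receptors and caspase regulators gave 5 rises and 11 falls of 19, with a median of -0.42. XIAP, an inhibitor of caspases, fell by 1.66, but Nutlin-3 replicate 1 at 765 lay far below replicates 2 and 3 at 1616 and 1666. The triple libraries, at 405, 552, 237 and 486, still lay below all of them.

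PARP1 consumes NAD to build poly(ADP-ribose) on damaged DNA, and its overactivity is known to drive a form of death called parthanatos that runs through AIFM1. Of 10 tested genes of this group 4 rose and 2 fell, with a median of 0.13, which was 0.04 without Nutlin-3 replicate 1 and 0.21 under quantile normalization. PARP1 read 16495, 15380 and 14714 with Nutlin-3 and 9777, 9133, 8830 and 8669 with the triple treatment, with no overlap. It fell by 0.77 (SE 0.06, adjusted p = 2.1e-12 by limma), more than its -0.28 without Nutlin-3; the difference of -0.49 was itself called (adjusted p = 7.2e-06 by limma). The deacetylase gene SIRT1, whose product shares NAD as a substrate, fell by 0.56. HPF1, the partner that directs PARP1 to serine, rose by 1.28 from 690, 617 and 640 to 1576, 1592, 1534 and 1606. ADPRHL2, the hydrolase that removes serine-linked ADP-ribose, rose by 1.49, from 364, 238 and 185 to 697, 697, 799 and 654. HPF1 and ADPRHL2 were both lower with B87+DMKG alone (-0.52 and -0.75), so their effect turned with Nutlin-3, by 1.80 and 2.23 in the test of the difference. AIFM1 averaged 11227 and 10617 and was not called (-0.08, adjusted p = 0.32 by limma).

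The largest fall with a named gene and values well above 0 was CUL3 (chr2:225334867-225450114), the scaffold of a family of ubiquitin ligases that, with KEAP1, also holds the antioxidant factor NRF2 in check. CUL3 read 6811, 7158 and 8087 with Nutlin-3 and 155, 151, 128 and 129 with the triple treatment. The groups were 52.2-fold apart in their means, and the difference was -5.70 (SE 0.11, adjusted p = 1.9e-26 by limma). Without Nutlin-3 the addition lowered CUL3 from a mean of 8891 to 918, or -3.29, and with Rita from 5547 to 2729, or -1.02. The fall under Nutlin-3 exceeded that without it by -2.41 (adjusted p = 2.7e-13 by limma).

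Of 14 genes of cullin ligases, 10 fell and 1 rose, with a median of -0.81; without Nutlin-3 replicate 1, 2 rose. CUL5, another scaffold of the family, read 979, 1252 and 1125 with Nutlin-3 and 91.8, 113, 52.7 and 139 with the triple treatment, a difference of -3.56. UBL3, a gene of a ubiquitin-like protein, fell by 3.50 from a mean of 1086 to 96.4; its fall without Nutlin-3 was -3.59, and the difference between these effects was not called (adjusted p = 0.73 by limma) except under quantile normalization. KBTBD8, a substrate adaptor of CUL3, averaged 41.1 and 11.2 and fell by 2.57, with values that overlapped. Among genes of ubiquitin pathways outside the list, named after their values were seen, USP7, the deubiquitinase that stabilises MDM2 and p53, went from 16965, 22120 and 23369 to 2009, 2025, 1735 and 1851, a fall of -3.44. UBE4B, a ubiquitin chain elongation factor, fell by 3.59 from a mean of 4448 to 370.

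NRF2 targets gave 4 rises and 10 falls of 20, with a median of -0.13. HMOX1, heme oxygenase, read 10494, 7892 and 7020 with Nutlin-3 and 2035, 1688, 1990 and 1735 with the triple treatment, a fall of -2.17 (SE 0.14). The thioredoxin reductase TXNRD1 fell by 1.48 from a mean of 142072 to 50673, the cystine transporter SLC7A11 (-1.23) and the exporter ABCC2 (-1.23) fell too.

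Other genes among the 12 largest falls have varied roles. TIMM21, a subunit of the mitochondrial inner membrane translocase, went from 4288, 4427 and 4842 to 233, 213, 248 and 196, a difference of -4.34. DLG1, a scaffold of cell polarity (-4.08), the splicing factor TRA2A (-3.81), the microtubule-associated MAP7D3 (-3.79) and ARID2, a subunit of a chromatin remodeller (-3.76), fell as well. NORAD (chr20:34633542-34638882), an abundant long noncoding RNA that sequesters Pumilio proteins, read 15148, 17982 and 22381 with Nutlin-3 and 1339, 1612, 1123 and 1265 with the triple treatment, a fall of -3.79. In MAP7D3 the addition gave a difference of 0.03 without Nutlin-3 and was not called there, and the difference between the effects was -3.82 (adjusted p = 7.4e-15 by limma).

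Several of the largest falls were low or uncertain. HIC1, a transcriptional repressor that p53 induces, averaged 86.2 and 5.20, beside 210 with Rita and 174 with B87+DMKG+Rita. SPRY3 was at 181, 211 and 174 with Nutlin-3 and at 0, 0, 0 and 66.8 with the triple treatment, and its call was lost with DESeq2 (adjusted p = 0.30). The antisense RNAs OTUD6B-AS1 (1378 to 41.0) and ST20-AS1 (73.4 to 0.967) were also among them; whether counting used the strand is not given in the sources used here, so reads of an antisense gene and its partner may not be separated.

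Among the genes that rose, immediate early genes, which growth factors and stress switch on within minutes, were prominent. Of 24 tested, 16 rose and 2 fell, with a median of 1.23. The list again holds genes known from these libraries to respond to B87+DMKG, of which 21 rose without Nutlin-3 (median 2.04).

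EGR1 (chr5:137801169-137805189), a zinc finger transcription factor, read 815, 749 and 1155 with Nutlin-3 and 19475, 18470, 20566 and 17878 with the triple treatment. The triple libraries lay close together and far above all 3 Nutlin-3 libraries, and the rise was 4.42 (SE 0.21, adjusted p = 2.7e-17 by limma). Without Nutlin-3 EGR1 rose from a mean of 374 to 33495, or 6.54, and the difference between the effects was -2.12 (adjusted p = 4e-07 by limma). Nutlin-3 alone already stood above Control, and the triple treatment ended below B87+DMKG. FOS, which pairs with JUN in the transcription factor AP-1, went from 205, 152 and 266 to 3893, 3942, 4242 and 3657. Its rise of 4.27 stood beside one of 4.03 without Nutlin-3, and the difference between them was 0.24 (SE 0.30, adjusted p = 0.51 by limma). FOSB, its relative, rose by 3.00 with and 4.64 without Nutlin-3.

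JUN (chr1:59246465-59249785) rose further with Nutlin-3. It read 300.2, 246 and 214 in the Nutlin-3 libraries and 4594, 4685, 4960 and 4637 in the triple treatment, a rise of 4.23 (SE 0.12). Without Nutlin-3 the rise was 2.85, and the difference of 1.38 was called (adjusted p = 3.5e-08 by limma). NR4A2, an orphan nuclear receptor, rose by 3.12 from a mean of 623 to 5400. The genes that fell were SRF, the serum response factor that drives many of this class, (-1.04), and IER5 (-1.40); both are named after their values were seen. SRF read 1805, 1985 and 1976 with Nutlin-3 and 829, 957, 1025 and 922 with the triple treatment, while it rose by 0.54 without Nutlin-3.

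The promoter of EGR1 is shown because it carries the element that SRF reads. Within the 250 bases before gene starts (RefSeq, GRCh38.p14), the CArG box of serum response elements was searched on both strands and was found in EGR1 and SRF, 2 of the 15 immediate early genes with a promoter in the table, against 407 of 35093 promoters (1.16%). The EGR1 window, chr5:138465229-138465478 on the plus strand, reads as follows, with matches in capitals that begin 105 and 83 bases before the start.
EGR1: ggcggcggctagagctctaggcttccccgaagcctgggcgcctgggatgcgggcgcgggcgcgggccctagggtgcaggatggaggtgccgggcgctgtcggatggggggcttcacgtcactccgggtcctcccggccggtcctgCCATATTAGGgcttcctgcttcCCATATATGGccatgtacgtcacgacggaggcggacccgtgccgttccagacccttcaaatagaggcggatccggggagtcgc
A match is a description and not evidence of binding, and no match in FOS says only that these letters are not in this window. Each list gene was counted with only its first promoter, whereas the 35093 promoters can include several of a gene. The shares of the list and of all promoters are thus in unlike units.

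Feedback regulators of MAP kinase signalling, which EGR1 and FOS report on, gave 5 rises and 6 falls of 15, with a median of -0.07, which was -0.13 without Nutlin-3 replicate 1, -0.03 with the replicate number as a block and turned to 0.01 under quantile normalization. The phosphatase genes DUSP2 and DUSP1 rose by 2.08 and 0.97. The inhibitors SPRED1 (-2.42) and SPRED2 fell; SPRED2 went from a mean of 999 to 350.4. Among ligands of the EGF receptor, HBEGF rose by 0.57 (not called without Nutlin-3 replicate 3, adjusted p = 0.075 by limma), while AREG (-1.62) and EPGN (-1.41) fell; 4 of the 7 were not called.

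KLF transcription factors gave 7 rises and 3 falls of 13, with a median of 0.42. KLF2 read 795, 680 and 493 with Nutlin-3 and 7328, 6981, 8492 and 4902 with the triple treatment, a rise of 3.40 (SE 0.32). KLF4 rose by 2.36, KLF6 by 2.18 and KLF11 by 2.06. KLF11 gave -0.33 without Nutlin-3, and the difference of 2.39 was called (adjusted p = 4.7e-08 by limma). KLF6 rose by 2.23 without Nutlin-3, a difference of -0.05 between the effects (adjusted p = 0.83 by limma).

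NF-kB and inflammatory genes gave 13 rises and 3 falls of 18, with a median of 1.04. TNF, the inflammatory cytokine, read 14.5, 6.41 and 14.5 with Nutlin-3 and 96.9, 69.0, 119 and 75.4 with the triple treatment, while it gave 0.04 without Nutlin-3. The chemokine genes CCL20 and CXCL3 rose by 1.80 and 1.66, near their rises of 1.49 and 1.46 without Nutlin-3. PTGS2, which makes prostaglandins, rose by 1.65 with Nutlin-3 and gave -0.18 without it; the difference of 1.84 was called (adjusted p = 3e-07 by limma).

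**Figure D2:**
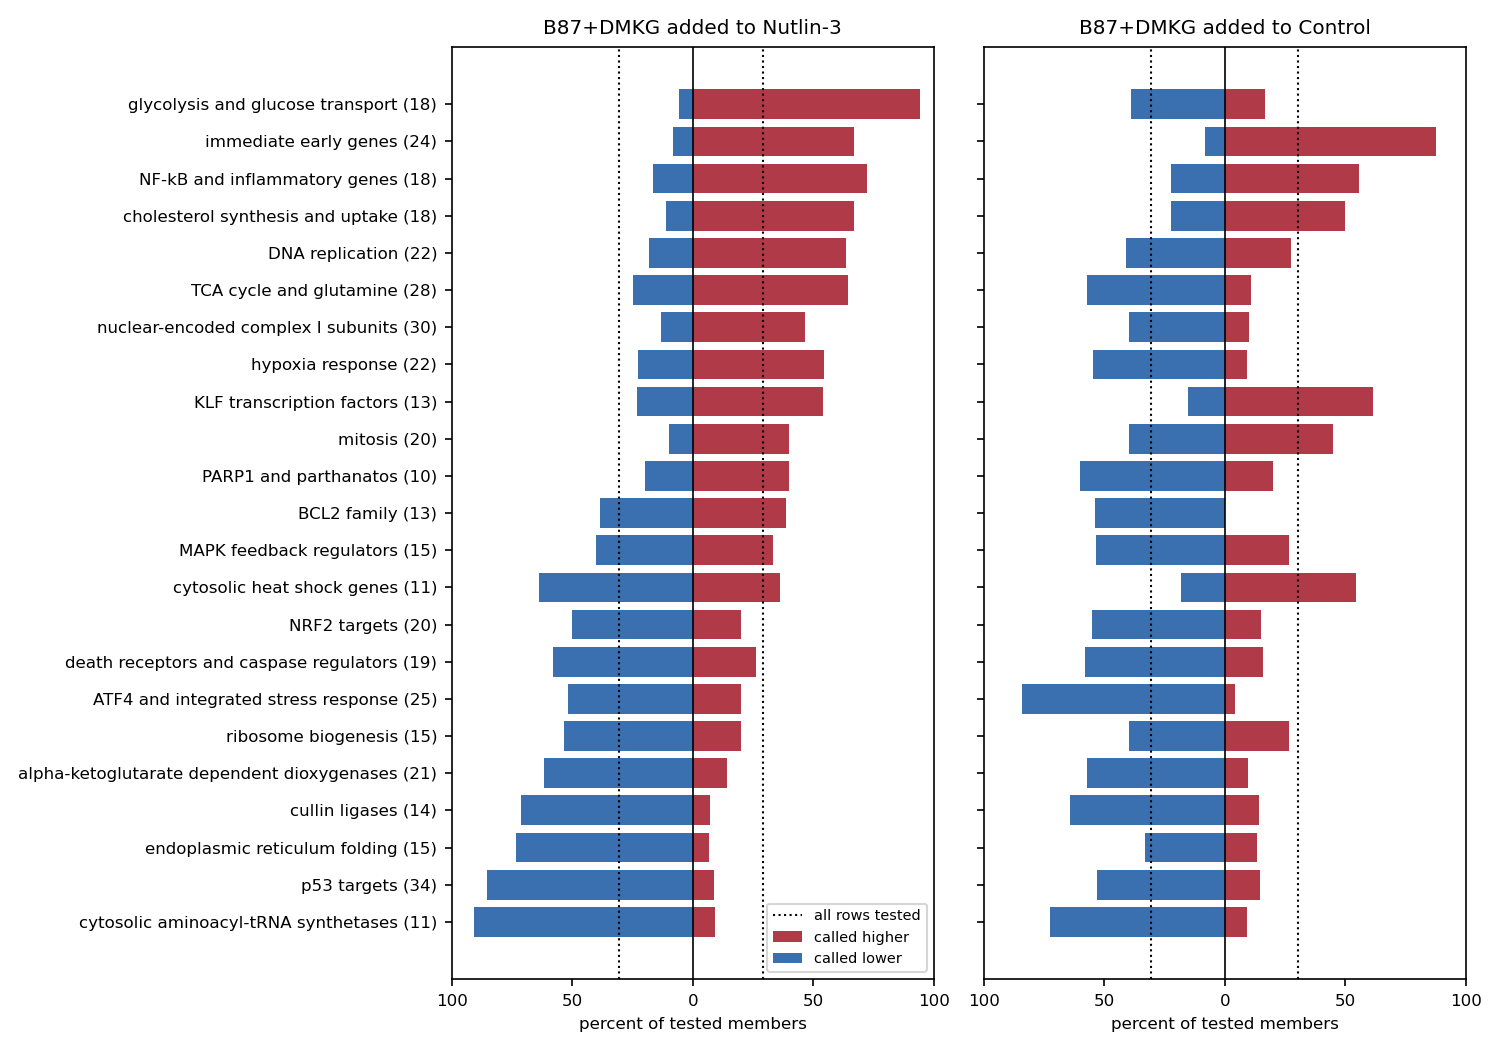
Percent of the tested members of each gene list (number in brackets) called higher (red, to the right) or lower (blue, to the left) when B87+DMKG was added to Nutlin-3 (left) or to untreated cells (right), for lists with at least 10 tested members. Dotted lines give the shares of all rows; glycolysis and immediate early genes lie at the top with Nutlin-3 and aminoacyl-tRNA synthetases and p53 targets at the bottom.

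DDIT4 (chr10:74033677-74035797), which encodes the mTOR inhibitor REDD1 and answers to hypoxia, p53 and ATF4, rose from an already high level. It read 56063, 45031 and 46157 with Nutlin-3 and 490989, 447353, 508204 and 439327 with the triple treatment. The rise of 9.61-fold in the means, or 3.27 (SE 0.13, adjusted p = 4.8e-19 by limma), contrasted with a fall of -0.82 without Nutlin-3. The difference between the effects was 4.09 (adjusted p = 1.7e-16 by limma). Nutlin-3 alone averaged 49084 and Control 40386, and the high level appeared in the triple treatment and not in any of the 5 other groups plotted. The groups given only B87 or only DMKG are not among those plotted. No group received Nutlin-3 with only B87 or only DMKG, so whether all 3 agents are needed cannot be told from this design. Of the 8 tested brakes of mTOR, DDIT4 included, 2 rose and 2 fell. SESN1, a p53 target (-2.05), and SESN3 (-1.41) fell, TSC2 rose by 0.46, and SESN2, named after its values were seen, gave -0.39 (adjusted p = 0.12 by limma).

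TIPARP (chr3:156392205-156424555), a target of the aryl hydrocarbon receptor, rose from 579, 706 and 623 to 5826, 7137, 5478 and 7252. The rise was 3.33 (SE 0.12), against 0.67 without Nutlin-3. Further genes among the 12 largest rises were low with Nutlin-3. CAND2, a regulator of cullin assembly, averaged 12.7 and 118, FAM171A2 22.6 and 206, RASD1 13.4 and 138, and C1orf116 2.42 and 30.5. C1orf116 was far higher with Rita (278) and with B87+DMKG+Rita (351). Those libraries count towards the mean of at least 50 that this ranking asks for.

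The hypoxia response, which B87 was developed to block, moved upward with Nutlin-3. Of 22 tested genes 12 rose and 5 fell (median 0.40; 3 fell under quantile normalization), whereas without Nutlin-3 it was 2 rises and 12 falls (median -0.31). The difference was called higher for 13 and lower for 2, against 26.4% and 30.6% of all rows. ADM, the vasodilator adrenomedullin, read 1095, 953 and 1017 with Nutlin-3 and 4038, 3601, 4240 and 3594 with the triple treatment, a rise of 1.92 (SE 0.10), and gave -0.41 without Nutlin-3. Outside these 22 genes, MIR210HG (chr11:565657-568457) is the host of a hypoxia-induced microRNA. It was at 0, 1.60 and 0 with Nutlin-3 and at 47.4, 43.5, 37.0 and 54.8 with the triple treatment. Its fitted 5.07 depends on the added constant. MIR210HG averaged at most 45.7 in the 6 groups plotted, yet at least 50 over the 31 libraries. It was therefore higher still in cells given only B87 or only DMKG, whose levels are not shown here. CA9, a carbonic anhydrase and classic hypoxia marker, reached at most 5.75 in these 7 libraries, and its rise of 1.96 was lost without Nutlin-3 replicate 1 (adjusted p = 0.087) or 2 (adjusted p = 0.093 by limma). VEGFA, the angiogenic growth factor, went against the list and fell by 0.73, near its -0.84 without Nutlin-3.

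Glycolysis and glucose transport moved together: 17 of 18 tested genes rose and 1 fell, with a median of 0.50. Under quantile normalization 14 rose and 1 fell, with the same median. Without Nutlin-3, 3 rose and 7 fell (median -0.11), and the difference between the effects was called higher in 14 of the 18. SLC2A3, a high-affinity glucose transporter, read 1915, 1887 and 1796 with Nutlin-3 and 8256, 10313, 7868 and 9287 with the triple treatment, a rise of 2.25 (SE 0.11, adjusted p = 3.5e-17 by limma). SLC2A1, the main transporter of tumour cells, read 14141, 10557 and 9956 against 20733, 23876, 24419 and 23180. Its mean rose 2.00-fold with Nutlin-3, and it fell by 0.75 on the log2 scale without it. ENO2 and ALDOC, isoforms of enolase and aldolase, rose by 1.71 and 1.17, and HK2, hexokinase, by 0.44. The gene that fell, PFKFB3, sets the level of an activator of phosphofructokinase (-0.46, named after its values were seen).

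Genes that sense glucose split. TXNIP, which restrains glucose uptake, read 2320, 2723 and 2371 with Nutlin-3 and 664, 670, 588 and 644 with the triple treatment, a fall of -1.94 (SE 0.17). Its relative ARRDC4 fell by 4.18, from 226, 278 and 209 to 9.08, 28.8, 9.24 and 8.57, while ARRDC3 rose by 1.31. MLXIP, the glucose-responsive transcription factor, fell by 0.65 with Nutlin-3 and rose by 1.72 without it.

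Genes of the tricarboxylic acid cycle and glutamine use gave 18 rises and 7 falls of 28 with Nutlin-3 (median 0.42) and 3 rises and 16 falls without it (median -0.24). OGDH, which consumes α-ketoglutarate, went from 8798, 7717 and 7799 to 13945, 14503, 14659 and 14690, a rise of 0.84 (SE 0.06). IDH2, which makes it in mitochondria, rose by 0.92, GLUL, glutamine synthetase, by 1.17, and ME2, a malic enzyme, fell by 0.89. The subunits of complex I, the target of B87, gave 14 rises and 4 falls of 30, with a small median of 0.17; NDUFS7 rose by 0.94 and NDUFB11 by 0.63, while NDUFA12 (-0.74) and NDUFA5 (-0.71) fell. Without Nutlin-3 replicate 1 the falls in this list numbered 7. Values of NDUFA12 overlapped, since Nutlin-3 replicate 1 at 7401 lay near the triple libraries and replicates 2 and 3 stood at 13439 and 14326. Dioxygenases that use α-ketoglutarate fell in 13 and rose in 3 of 21 (median -0.46, and -0.76 without Nutlin-3 replicate 1), among them the histone demethylases KDM6B (-1.90), KDM4A (-1.52) and KDM7A (-1.39) and the DNA demethylase TET3 (-1.57).

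Cholesterol synthesis and uptake gave 12 rises and 2 falls of 18, with a median of 0.45; 1 gene fell under quantile normalization or with the replicate number as a block. MSMO1, a sterol oxidase gene, rose by 1.28 and MVK, which encodes mevalonate kinase, by 1.13.

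DNA replication genes, which p53 and p21 repress, gave 14 rises and 4 falls of 22 (median 0.62), against 6 rises and 9 falls without Nutlin-3 (median -0.11). CDT1, which licenses replication origins, read 2254, 1328 and 1256 with Nutlin-3 and 7145, 6689, 7782 and 6254 with the triple treatment. It rose by 2.16 (SE 0.14, adjusted p = 4.5e-14 by limma) and passed the Control mean of 3796. MCM2, part of the replicative helicase, rose by 1.08 to the Control level, with a mean of 12661 beside 12059. CCNE2, cyclin E2, rose by 1.47 and stayed below Control, at 487 beside 917. RFC4, a clamp loader subunit, fell by 1.14.

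Mitosis genes gave 8 rises and 2 falls of 20 and a median of 0.08, and 4 falls without Nutlin-3 replicate 1. The median was 0.05 with equal totals and 0.15 under quantile normalization. CDC20 and AURKB rose by 0.90 and 0.79, and KIF23 (-1.10) and PLK1 (-0.82) fell.

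The integrated stress response, in which ATF4 switches on amino acid supply, gave 5 rises and 13 falls of 25 with Nutlin-3 (median -0.51). Without Nutlin-3 it gave 1 rise and 21 falls (median -1.18). The difference between the effects was called higher for 13 genes and lower for 4, so the list fell less with Nutlin-3 on these counts. ATF4 itself read 79637, 72828 and 69656 with Nutlin-3 and 45882, 40814, 46686 and 41424 with the triple treatment, a fall of -0.76 (SE 0.08). It fell by 0.73 without Nutlin-3 and the difference was not called (adjusted p = 0.83 by limma).

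CHAC1 (chr15:41245636-41248717), a glutathione-degrading enzyme and sensitive ATF4 target, showed the widest gap between the effects among the tested genes of this list. It read 5399, 5896 and 6468 with Nutlin-3 and 3110, 2813, 3330 and 2908 with the triple treatment, whereas without Nutlin-3 it went from a Control mean of 2589 to 38.8. The changes were -0.96 (SE 0.38, adjusted p = 0.032 by limma) and -6.02, and the difference of 5.06 was called (adjusted p = 3.1e-09 by limma). The call with Nutlin-3 was lost without Nutlin-3 replicate 2 (adjusted p = 0.068) or 3 (0.091) and without triple replicate 2 (0.058) or 4 (adjusted p = 0.054 by limma). It was also lost under quantile normalization (adjusted p = 0.056) and with no filter on low values (adjusted p = 0.073 by limma). The SE of 0.38 rests on the spread within all groups of the series. The triple and Nutlin-3 values of CHAC1 did not overlap, and the call was kept when only the groups compared were fitted. Control replicate 3 lay low for CHAC1, at 710, and for the ATF4 targets ADM2, STC2 and NUPR1. Without that library, no call of CHAC1, STC2 or NUPR1 changed, either without Nutlin-3 or in the difference between the effects. The difference for ADM2 was then called.

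TRIB3, which feeds back on ATF4, averaged 6252 and 8008 and was not called with Nutlin-3 (0.38, adjusted p = 0.075 by limma), beside -2.24 without it. The call appeared when the groups compared were fitted alone (adjusted p = 0.026) and without Nutlin-3 replicate 1 (0.55, adjusted p = 0.018 by limma). ASNS, asparagine synthetase, fell by 0.99 from 13330, 11536 and 12185 to 6194, 6089, 6460 and 6163. DDIT3, which encodes CHOP, averaged 292 and 338 and was not called (adjusted p = 0.50 by limma). NUPR1 (-3.05) and ADM2 (-2.88) fell. PPP1R15A, which reverses the translational block of this response, rose by 2.10 from a mean of 2295 to 9838, and STC2 by 0.99, the latter named after its values were seen.

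The promoters of CHAC1 and ASNS are shown because both hold the composite element through which ATF4 acts. ASNS fell, and CHAC1 fell with no overlap of the groups, though its call with Nutlin-3 was lost under the 6 alternatives just given. The letters TGATGNAA, searched on both strands in the same 250-base windows, were found in ASNS, ATF3 and CHAC1, 3 of 20 genes of the list with a promoter in the table, against 1104 of 35093 promoters (3.15%). The windows are chr15:40953221-40953470 on the plus strand for CHAC1, where the match in capitals begins 209 bases before the start, and chr7:97872409-97872658 on the minus strand for ASNS, where it begins 68 bases before it.
CHAC1: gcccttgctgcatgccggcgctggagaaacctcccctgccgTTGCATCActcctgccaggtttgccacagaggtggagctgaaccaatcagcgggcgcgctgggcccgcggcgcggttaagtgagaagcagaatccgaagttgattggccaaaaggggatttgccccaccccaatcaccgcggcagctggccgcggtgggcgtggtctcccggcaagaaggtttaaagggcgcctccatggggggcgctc
ASNS: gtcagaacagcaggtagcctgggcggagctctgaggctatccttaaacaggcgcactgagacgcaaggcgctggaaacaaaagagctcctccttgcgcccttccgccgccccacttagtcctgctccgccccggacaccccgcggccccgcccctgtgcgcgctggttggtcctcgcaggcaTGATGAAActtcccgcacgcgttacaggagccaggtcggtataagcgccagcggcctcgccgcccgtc
In CHAC1 the match lies on the opposite strand, so its reverse complement stands in capitals. Here too the list was counted with the first promoter of each gene, and the 35093 promoters can include several of a gene.

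Aminoacyl-tRNA synthetases of the cytosol, also ATF4 targets in part, fell in 10 of 11 tested genes (median -0.86). WARS, the tryptophanyl enzyme, went from 40696, 38911 and 40476 to 16179, 16238, 16750 and 16364, a fall of -1.29 (SE 0.06). NARS (-1.20), GARS (-0.98) and CARS (-0.90) fell as well. LARS, named after its values were seen, rose by 0.25.

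Folding genes of the endoplasmic reticulum fell in 11 and rose in 1 of 15 (median -0.43), compared with 5 and 2 without Nutlin-3. HERPUD1, which serves the degradation of misfolded proteins, read 19218, 21454 and 23699 with Nutlin-3 and 5255, 5510, 5600 and 5628 with the triple treatment, beside 3583 in Control. It fell by 1.96 (SE 0.13), and without Nutlin-3 it was not called (-0.15) unless Control replicate 3 was left out. DNAJC3 (-2.13), DNAJB9 (-1.94) and EDEM1 (-1.74) fell too. XBP1, the transcription factor of this response and the gene that rose, gave 0.39 (named after its values were seen); its call was lost without Nutlin-3 replicate 3 (adjusted p = 0.053 by limma).

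Cytosolic heat shock genes gave 4 rises and 7 falls of 11 (median -0.40), and 6 rises and 2 falls without Nutlin-3 (median 0.31). HSPA1A (chr6:31783291-31785722), the inducible chaperone HSP70, read 10803, 9768 and 14442 with Nutlin-3 and 1229, 1010, 1271 and 1369 with the triple treatment. It fell by 3.25 (SE 0.24, adjusted p = 7.1e-13 by limma), rose by 1.12 without Nutlin-3, and differed between these effects by -4.37. Its near-identical copy HSPA1B fell by 2.39, and reads may have been split between the copies. DNAJA1 and DNAJB1, their cochaperones, fell (-0.98 and -0.79), and the small chaperone HSPB1 rose by 0.78 (named after its values were seen).

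Metallothioneins, which bind zinc and copper, rose when B87+DMKG was added to untreated cells and were not called when it was added to Nutlin-3. Of the 8 tested genes of this list 2 fell with Nutlin-3, the zinc exporter SLC30A1 (-1.40) and the metal-sensing factor MTF1 (-1.38), and 3 fell without Nutlin-3 replicate 1, while 2 rose under quantile normalization. Without Nutlin-3, 6 rose and 1 fell. MT1G (chr16:56700648-56701977) read 29.0, 6.41 and 16.9 with Nutlin-3 and 16.1, 19.7, 9.24 and 5.14 with the triple treatment, while B87+DMKG alone raised it from a mean of 6.02 to 687. The difference between the effects was -7.01 (SE 1.14, adjusted p = 5.8e-06 by limma). MT1F gave -0.38 and 4.33 in the same way, and MT2A, named after its values were seen, 0.31 and 2.05. With Rita the addition gave -0.65 for MT1G, 0.04 for MT1F and -0.03 for MT2A, none of them called, so the lack of a called rise was shared with Rita. Members of this family are near-identical, so reads may have been split between them.

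Ribosome biogenesis gave 3 rises and 8 falls of 15 (median -0.19), with NOP58 at -0.92, RRS1 at -0.80, RRN3 at -0.67 and RRP9 at 0.72.

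Comparing the whole transcriptome, the addition changed 9922 rows without Nutlin-3 (61.0%). Rows called in both comparisons numbered 6251, which is 64.4% of those called with Nutlin-3 and 63.0% of those called without it. Of these, 4016 moved in the same direction and 2235 in opposite directions. Of the latter, 1180 were higher with and lower without Nutlin-3, and 1055 the reverse. Across the 16259 rows the log2 differences had a Pearson correlation of 0.223; rows are not independent, and the value is a description. The difference between the effects was called in 9259 rows (56.9%), 4285 positive and 4974 negative. Under quantile normalization this balance turned, to 5155 positive and 4204 negative, and the median over all rows moved from -0.06 to 0.09.

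The most positive differences among genes with a mean of at least 50 over the 31 libraries of the series were those of CHAC1, MIR210HG, ELF3 (4.11), DDIT4, LINC01433 (3.94) and ATOH8 (3.90). ATOH8, a helix-loop-helix transcription factor, rose from 303, 210 and 138 to 997, 983, 1125 and 887 with Nutlin-3 and fell by 1.64 without it. ELF3, an epithelial transcription factor, went from 76.5, 53.7 and 42.3 to 217, 219, 225 and 186. The most negative were those of MT1G, RGPD1 (-5.78), GOLGA8R (-5.32), FAM229A (-5.08), LHX4-AS1 (-5.06) and MT1F (-4.71). MT1G and MT1F averaged 687 and 390 with B87+DMKG, and at most 37.8 and 33.4 in the other groups plotted. The filter on the mean takes in every group and so favours genes that are high in any of them. The place of MT1G and MT1F in this ranking thus depends in part on the filter. The same may hold for RGPD1 and GOLGA8R, which averaged 180 and 157 with B87+DMKG and at most 89.8 and 75.8 in the other groups plotted. It may hold for ELF3, at 212 with the triple treatment and at most 58.4 in the others. MIR210HG averaged at most 45.7 in the groups plotted and passed the filter through groups not plotted. FAM229A averaged 216 with Nutlin-3, 64.2 with the triple treatment, 67.3 in Control and 658 with B87+DMKG. RGPD1 and GOLGA8R belong to families of near-identical copies, and neither was called with Nutlin-3 itself. RGPD1 values did not overlap there, and its fall was called when only the groups compared were fitted (adjusted p = 0.0029 by limma). PPP1R10, a regulator of protein phosphatase 1, fell from 5770, 7314 and 7361 to 1242, 1263, 1333 and 1284 with Nutlin-3 (-2.40) and rose by 0.78 without it.

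**Figure D3:**
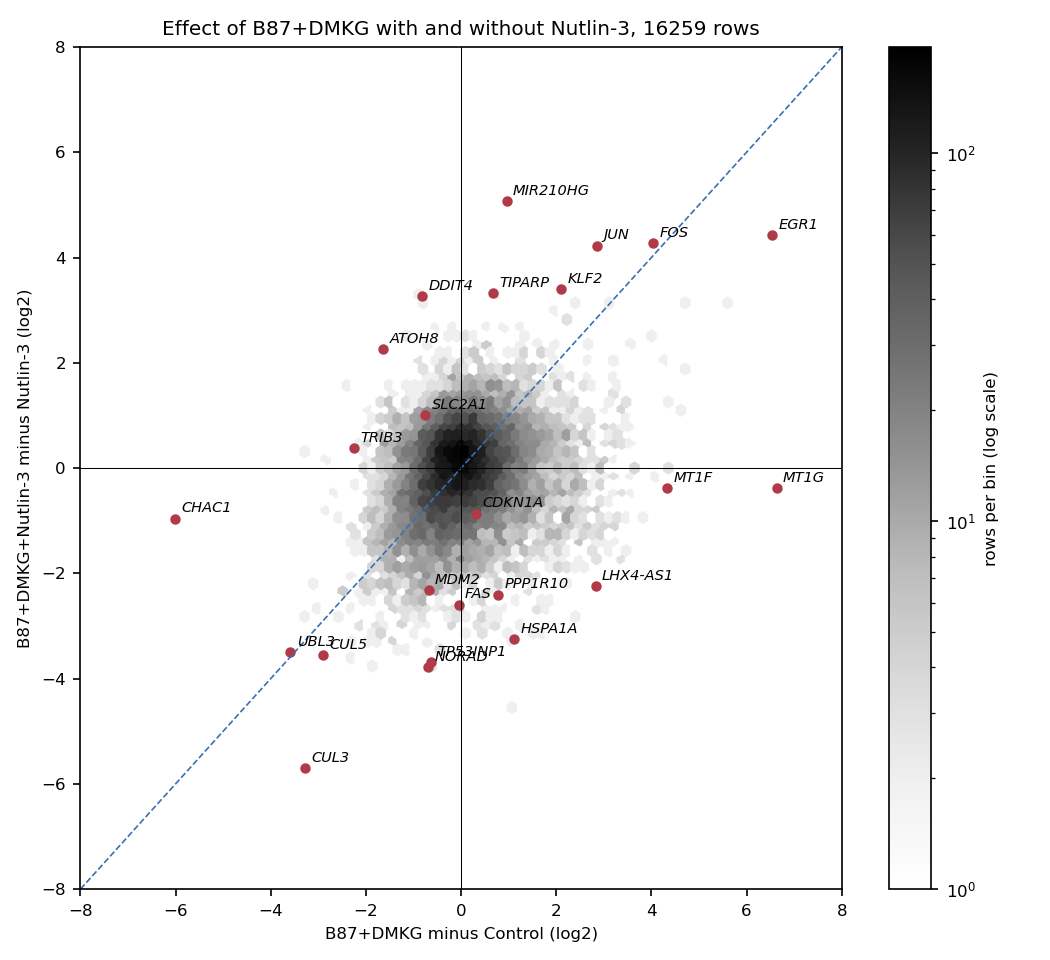
Log2 difference on adding B87+DMKG to Nutlin-3 (vertical) against that on adding it to untreated cells (horizontal), with 16259 rows binned by density and 24 genes marked; the dashed line marks equal differences. CUL3 and EGR1 lie in the same direction on both axes, whereas DDIT4 and HSPA1A take opposite signs and MT1G and CHAC1 lie far out on the horizontal axis.

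Against Rita, the addition was called in fewer rows, 3812 (23.4%), for B87+DMKG+Rita against Rita. The test of the difference between the effects under Nutlin-3 and under Rita called 5949 rows (36.6%). DDIT4 rose by 1.06 with Rita, from a mean of 26131 to 54361, and the difference from its rise with Nutlin-3 was 2.21 (adjusted p = 2.9e-11 by limma). JUN was already at 4128 with Rita alone and rose by 0.72. MDM2 stood at 11099 with Rita, far below its level with Nutlin-3, and fell by 0.52. CDKN1A was not called with Rita (0.19, adjusted p = 0.17 by limma). TXNIP fell by 2.00 with Rita, near its -1.94 with Nutlin-3, a difference of 0.06 (SE 0.24, adjusted p = 0.87 by limma). HSPA1A fell with Rita as well (-2.18), and HERPUD1 moved the other way, rising by 0.50. The correlation across rows between the effects under Nutlin-3 and Rita was 0.481, again as a description.

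Genes that rose and fell differed in length. Among the 13009 tested rows with 1 gene symbol, called rises had a median span of 21.0 kb and called falls 43.7 kb, beside 30.2 kb over all of them. Of genes spanning under 10 kb, 40.3% were called higher and 22.2% lower, and of those of 100 to 250 kb 20.6% and 41.9%. In the comparison without Nutlin-3 the shares were 31.7% and 27.2% under 10 kb, and 25.2% and 35.3% at 100 to 250 kb. The pattern did not continue in every bin or comparison. Over 250 kb the shares were 20.5% higher and 35.6% lower with Nutlin-3, 28.8% and 26.6% without it, and 26.5% and 5.96% with Rita. The 70 genes that fell by at least 3 on the log2 scale had a median span of 28.0 kb, below that of all genes. What sets this difference was not tested.

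**Figure D4:**
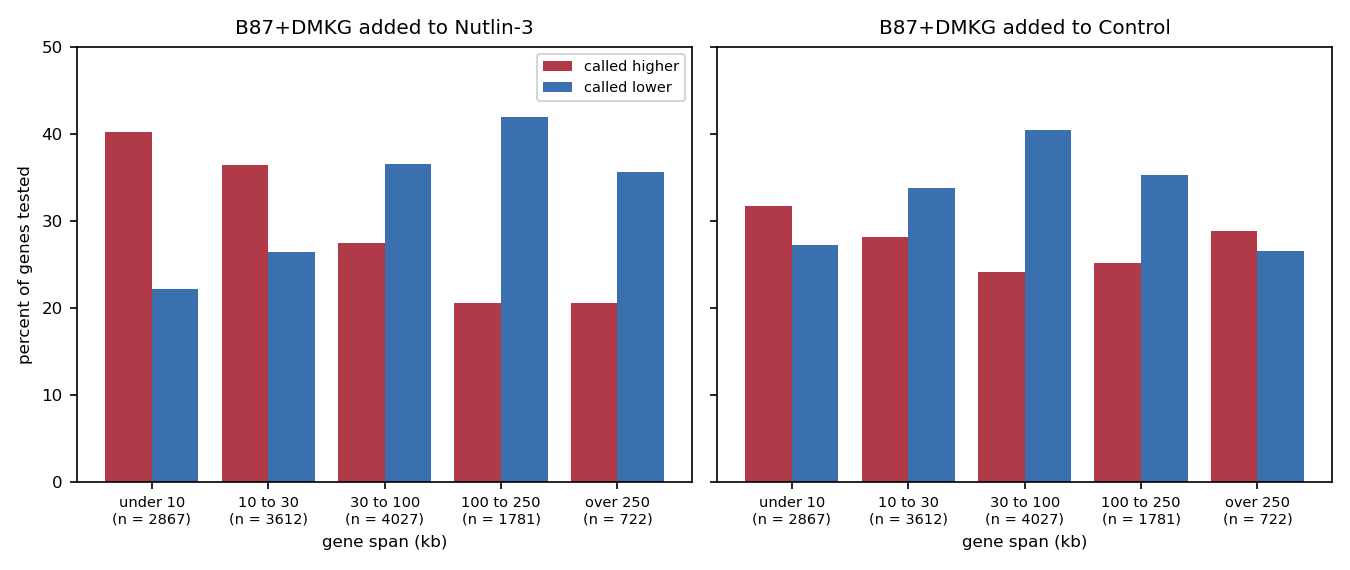
Percent of genes called higher (red) and lower (blue) by the span of the gene on hg19, for B87+DMKG added to Nutlin-3 (left) and to untreated cells (right), with the number of genes per bin under each label. With Nutlin-3 the share called higher drops from 40.3% under 10 kb to 20.5% over 250 kb.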

How the data were processed

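RNA with poly(A) tails from H460 cells went into TruSeq stranded libraries, per the labels' protocols. The authors normalized the read count of each gene by library before deposit, and the deposited table holds these values as signal. FastQC, Picard, SAMtools, STAR 2.4.0 and DESeq2 are named in the submitters' processing notes, without their roles. Gene positions are on hg19, which the table's header names; the notes name mm10, but the genes are human. Whole reads were recovered by dividing each library by the smallest step between its values, since all 690132 values above 0 lay within 0.1 step of a multiple. A read may be a read end, because 55.8% to 59.2% of counts below 1000 were even.

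Of 74834 rows, 16259 had a mean of at least 10. They were tested on log2(normalized value + 1), a pseudocount of 1, with limma 3.58.1 (R 4.3.3; linear model, contrasts, trended empirical Bayes). The model had a term for each of the 8 groups, took the 31 libraries together and left replicate numbers out. Contrasts were the addition of B87+DMKG to Nutlin-3, to Control and to Rita, and the differences of the first from the others. Alternatives were other pseudocounts, filters and scalings, edgeR 4.0.16, DESeq2 1.42.0, the groups compared alone, a replicate block and leaving out each replicate. The members, lists and fixed genes were chosen with earlier results of these data known. The text names rows with 1 symbol: the 12 largest rises and falls with a mean of at least 50 over all libraries and no overlap, the 4 most changed of the called genes in a list, the 6 largest differences each way, and fixed genes. Others are marked as named after their values were seen, and some genes that the rule names are not reported here. The 13 mitochondrially encoded protein genes of a list had no row of that name.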

Additional observations from a re-analysis of the deposited data

Results flagged for a closer look

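In 4 libraries of a group, the highest or lowest value was set against the range of the group. Chance marks about 1 group in 20 in this way. Many genes were looked at, so marks like those below also arise by chance. Control replicate 2 stood apart as the highest value for AURKB (5299), NDUFB11 (11217) and RRP9 (5882). Control replicate 3 stood apart as the highest value for FAM171A2 (130.1) and HSPA1B (12003). Control replicate 4 stood apart as the highest value for TNFRSF10B (3392). Control replicate 2 stood apart as the lowest value for CA9 (0), NDUFA5 (5255) and UBL3 (1201). Control replicate 3 stood apart as the lowest value for ADM2 (249), CHAC1 (710), GARS (22007), HERPUD1 (2517), NUPR1 (43.0), STC2 (1519) and TNF (4.77). B87+DMKG+Nutlin-3 replicate 2 stood apart as the highest value for ARRDC4 (28.8). B87+DMKG+Nutlin-3 replicate 3 stood apart as the highest value for DDIT3 (369.5). B87+DMKG+Nutlin-3 replicate 4 stood apart as the highest value for SPRY3 (66.8). B87+DMKG replicate 4 stood apart as the highest value for FOSB (766). B87+DMKG replicate 1 stood apart as the highest value for KDR (61.5) and as the lowest value for HBEGF (109). B87+DMKG replicate 2 stood apart as the lowest value for CCNG1 (968). B87+DMKG replicate 3 stood apart as the lowest value for BCL2 (151). B87+DMKG replicate 4 stood apart as the lowest value for NUPR1 (24.2).

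The log2 effect of adding B87+DMKG differed between cells with and without Nutlin-3, by the limma test of the difference itself, for the genes below, given as the effect with minus the effect without Nutlin-3. The effect was more positive with Nutlin-3 by at least 3 in CHAC1 (5.06), MIR210HG (4.12), ELF3 (4.11), DDIT4 (4.09), BIK (3.96), LINC01433 (3.94) and ATOH8 (3.90). It was more positive by 1.5 to 3 in FAM171A2 (2.91), TNF (2.84), CD14 (2.69), STC2 (2.67), TIPARP (2.66), CAND2 (2.64), TRIB3 (2.62), KLF11 (2.39), ADM (2.33), CDT1 (2.25), ADPRHL2 (2.23), C1orf116 (2.07), SLC2A3 (2.06) and CCNG1 (2.03). The same held for RASD1 (1.95), CCNE2 (1.89), PTGS2 (1.84), DUSP2 (1.83), HPF1 (1.80), SESN2 (1.79), XBP1 (1.78), SLC2A1 (1.76), GLUL (1.75) and ALDOC (1.70). It was more positive by under 1.5 in KRT18 (1.20), KRT7 (1.08), COL1A1 (0.84), CLDN4 (0.74), MCM2 (1.498), JUN (1.38), AEN (1.32), MSMO1 (1.32), KLF2 (1.29), ARRDC3 (1.24), IDH2 (1.17), GDF15 (1.16), DDIT3 (1.16), BOK (1.14), KLF4 (1.13), NDUFB11 (1.07) and KRT8 (1.06). The same held for NDUFS7 (1.05), SIRT1 (1.02), AURKB (0.95), HBEGF (0.77), CDC20 (0.73), RRP9 (0.68), HK2 (0.64), ASNS (0.56), MVK (0.51) and OGDH (0.20). It was more negative by under 1.5 in MTF1 (-1.50), DNAJB1 (-1.45), NUPR1 (-1.42), SPATA18 (-1.35), NDUFA12 (-1.31), XIAP (-1.25), KIF23 (-1.21), ABCC2 (-1.19), TET3 (-1.19), CDKN1A (-1.17), HMOX1 (-1.15), NOP58 (-1.09), MCL1 (-1.04) and NARS (-1.01). The same held for WARS (-0.999), PLK1 (-0.93), APAF1 (-0.85), SPRED2 (-0.81), RFC4 (-0.74), DNAJA1 (-0.70), CUL5 (-0.66), ME2 (-0.66), DUSP1 (-0.56), PARP1 (-0.49), TXNRD1 (-0.46), RRS1 (-0.44), CARS (-0.35) and GARS (-0.31). It was more negative by 1.5 to 3 in HSPA1B (-2.85), FAS (-2.54), CUL3 (-2.41), MLXIP (-2.37), TIMM21 (-2.34), BTG2 (-2.19), EGR1 (-2.12), DNAJC3 (-2.04), DLG1 (-2.02), DNAJB9 (-2.02), ST20-AS1 (-2.02), USP7 (-1.99), TRA2A (-1.95) and UBE4B (-1.84). The same held for HERPUD1 (-1.81), EDEM1 (-1.80), AREG (-1.78), ARRDC4 (-1.76), MT2A (-1.74), MDM2 (-1.64), FOSB (-1.64), TXNIP (-1.63), KDM6B (-1.59) and SRF (-1.58). It was more negative by over 3 in MT1G (-7.01), RGPD1 (-5.78), GOLGA8R (-5.32), FAM229A (-5.08), LHX4-AS1 (-5.06), MT1F (-4.71), OTUD6B-AS1 (-4.57), HSPA1A (-4.37), HIC1 (-4.24), MAP7D3 (-3.82), ARID2 (-3.22), PPP1R10 (-3.18), NORAD (-3.09) and TP53INP1 (-3.05).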

How the results depend on the processing

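Between 8429 and 9752 rows were called for B87+DMKG+Nutlin-3 against Nutlin-3 when each of the 7 libraries was left out in turn, against 9700 with all of them; the ranges were 9240 to 9662 without Nutlin-3, 8464 to 9416 for the difference between these effects and 4938 to 6632 for the difference from Rita. Asking also for a difference of at least 1 on the log2 scale left 3444, 3391, 4456 and 2153 rows, by construction. edgeR and DESeq2 on whole reads called 9812 and 9982 rows, quantile normalization 9849 and equal totals 9614. Of 2930 values recomputed for 163 named genes in B87+DMKG+Nutlin-3 against Nutlin-3, 2899 kept their direction and side of the threshold, 24 lost the call, 6 gained it and 1, MT1G, changed sign without Nutlin-3 replicate 1 without being called (0.09); the cause was not tested. The genes that lost a call were CA9, CHAC1, COL1A1, GDF15, HBEGF, KDR, SPRY3 and XBP1, and those that gained one LINC01433, MT2A, RGPD1, SESN2 and TRIB3. For the 160 genes printed here, 2930 of 3036 values without Nutlin-3 and 4001 of 4156 values of the difference between the effects kept direction and side; 49 and 60 lost the call, 25 and 51 gained it, and none that was called changed sign. The difference lost its call under 17 of 26 alternatives for ST20-AS1, 13 for OGDH, 11 for CUL5, 8 for MVK, 4 for C1orf116, 3 for GARS, 2 for CARS and 1 each for NUPR1 and SPATA18. Deviations of same-numbered libraries correlated at 0.05, 0.10 and -0.12, and those of differently numbered ones at -0.21 to 0.24. No pairing by replicate number was seen, but so few pairs cannot exclude it. With the replicate number as a block 9564 rows were called, with 9808, 9152 and 5786 for the other comparisons. In data simulated over 16259 rows with 200 genes changed, limma called 54.4% of the genes changed 1.5-fold, against 89.4% at 2-fold and 97.0% at 4-fold. The real comparison called 59.7% of rows, which sets another cut-off on p, so these shares do not carry over to it.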

Other observations

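Markers of the cell line moved with the treatment. Of 7 tested epithelial and carcinoma markers 4 rose and 1 fell, with a median of 0.67. The keratin KRT18 read 63776, 55037 and 48163 with Nutlin-3 and 107898, 91458, 108064 and 94424 with the triple treatment, a rise of 0.86 (SE 0.10), and KRT7 rose by 0.94. CLDN4, a tight junction claudin, went from a mean of 1491 to 763 and fell by 0.95. The mesenchymal receptor PDGFRB rose by 0.76 from a mean of 135 to 225. COL1A1, a fibroblast collagen, overlapped between the groups and rose by 0.40, a call lost under 9 of the alternatives. KDR, an endothelial receptor, stayed between 0 and 11.5 in the 7 libraries. KRT8 and KRT18 were lower, not higher, when B87+DMKG was given without Nutlin-3, at -0.28 and -0.34, and the call for KRT8 was lost under 7 of 19 alternatives.

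Of 2416 rows without a gene symbol, 694 were called lower and 316 higher, against 4067 and 4090 of 13009 rows with 1 symbol. Over all rows 30.6% were called lower and 29.0% higher. The rows without a symbol thus had fewer rises, and their share of falls was not raised. This pattern was noticed in the data and was not tested.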
